A study of Mus musculus with 4 samples.

Results

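The mouse genome carries 39 protein-coding Hox genes in the 4 clusters HoxA to HoxD, and these clusters were followed across 4 chromatin accessibility libraries. All 39 genes were members, out of 21887 protein-coding genes on the autosomes and sex chromosomes, and no measured value was used to choose them. A locus was the gene body plus 10 kb on either side in mm10 (GRCm38), with neighbouring loci joined. HoxA on chromosome 6 (11 genes, 125.5 kb), HoxC on chromosome 15 (9 genes, 135.7 kb) and HoxD on chromosome 2 (9 genes, 116.9 kb) each formed 1 locus. HoxB on chromosome 11 (10 genes, 139.2 kb) formed 2, because Hoxb13 lies apart from the rest. Together they spanned 517.4 kb.

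The assay was Omni-ATAC-seq, whose transposase inserts sequencing adapters into accessible DNA. Each of the 4 groups had 1 library, namely Cxcr3-/- monocytes, wild-type (WT) monocytes, Cxcr3-/- CMP/GMP and WT CMP/GMP, where CMP/GMP are the myeloid progenitors that give rise to granulocytes and monocytes. Cxcr3 encodes a chemokine receptor, and the Cxcr3-/- mice lack it in every cell. All cells were bone marrow-derived, from C57BL/6J mice, and were cultured in vitro according to the design text. The sample labels name hepatocellular carcinoma as the disease state, and the design text describes a liver cancer model driven by diethylnitrosamine and tetrachloromethane. Whether the donors of these cultured cells received the 2 agents, their age, and how many animals went into a library are not given in the sources used here. Because no group was replicated, p-values are left out, and every error interval below covers counting error only.

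Hox genes encode homeodomain transcription factors that set position along the body axis, and their order on the chromosome follows the order of their expression domains. Paralogue groups 1 to 4 are called anterior, 5 to 8 central and 9 to 13 posterior here. In blood, Hoxa7, Hoxa9 and Hoxa10 are known from stem and progenitor cells, where Hoxa9 acts with its partner Meis1, and their expression falls as myeloid cells mature. Polycomb complexes keep Hox clusters silent, and MLL complexes with DOT1L keep them active.

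The lists held 78244 intervals in Cxcr3-/- monocytes, 98257 in WT monocytes, 80171 in Cxcr3-/- CMP/GMP and 69521 in WT CMP/GMP. The background was 97.2, 95.6, 194 and 134.6 tags per 10 kb in the same libraries, higher in both progenitor libraries. Of 10 monocyte markers, 9, 10, 10 and 10 had an interval within 1 kb of the gene start in these libraries, Ccr2 being the gene without one. Of 10 CMP/GMP markers the counts were 7, 7, 9 and 9, with Elane and Mpo lacking one in both monocyte libraries and Prtn3 in all 4. Intervals at the starts of markers of other cells numbered 3, 4, 2 and 3 of 6 for B cells, 2, 3, 2 and 1 of 7 for T cells, 3, 3, 3 and 2 of 6 for erythroid cells, 5, 6, 4 and 2 of 9 for stromal and endothelial cells, and 0 of 5 for hepatocytes in every library. Cd79a, Pax5, Cd3e, Cd3d and Cd3g had no interval at the start in any library. The part of other cell types in the results below was not tested.

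Hox loci were accessible in all 4 libraries, but weakly. They held 26 intervals in Cxcr3-/- monocytes, 38 in WT monocytes, 40 in Cxcr3-/- CMP/GMP and 28 in WT CMP/GMP. Per 100 kb that was 5.03, 7.34, 7.73 and 5.41 intervals, against 4.56, 5.72, 4.65 and 4.03 over the loci of all protein-coding genes. The number of tags stacked at an interval's summit, its pileup, had a median of 14, 12.5, 20.5 and 15 in Hox loci and of 22, 22, 30 and 22 in all protein-coding loci. In the full lists, interval density was thus above that of the average gene locus while interval height was below it, in each library. Intervals covered 1.07%, 1.63%, 1.84% and 1.05% of the bases of Hox loci, against 1.41%, 1.69%, 1.60% and 1.18% in all protein-coding loci. By bases covered, Hox loci were thus higher in Cxcr3-/- CMP/GMP only. The densities are given without counting error. No Hox interval was among the 10000 best by q of any list, and the best ranks were 27417, 17671, 18810 and 17863. Because the lists differ in length, the counts were repeated with every list reduced to its 69521 best intervals. That left 20, 20, 26 and 28 Hox intervals and no excess of Cxcr3-/- over WT CMP/GMP. The density over all protein-coding loci was not taken at this length, so the higher Hox density is shown for the full lists only.

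**Figure D1:**
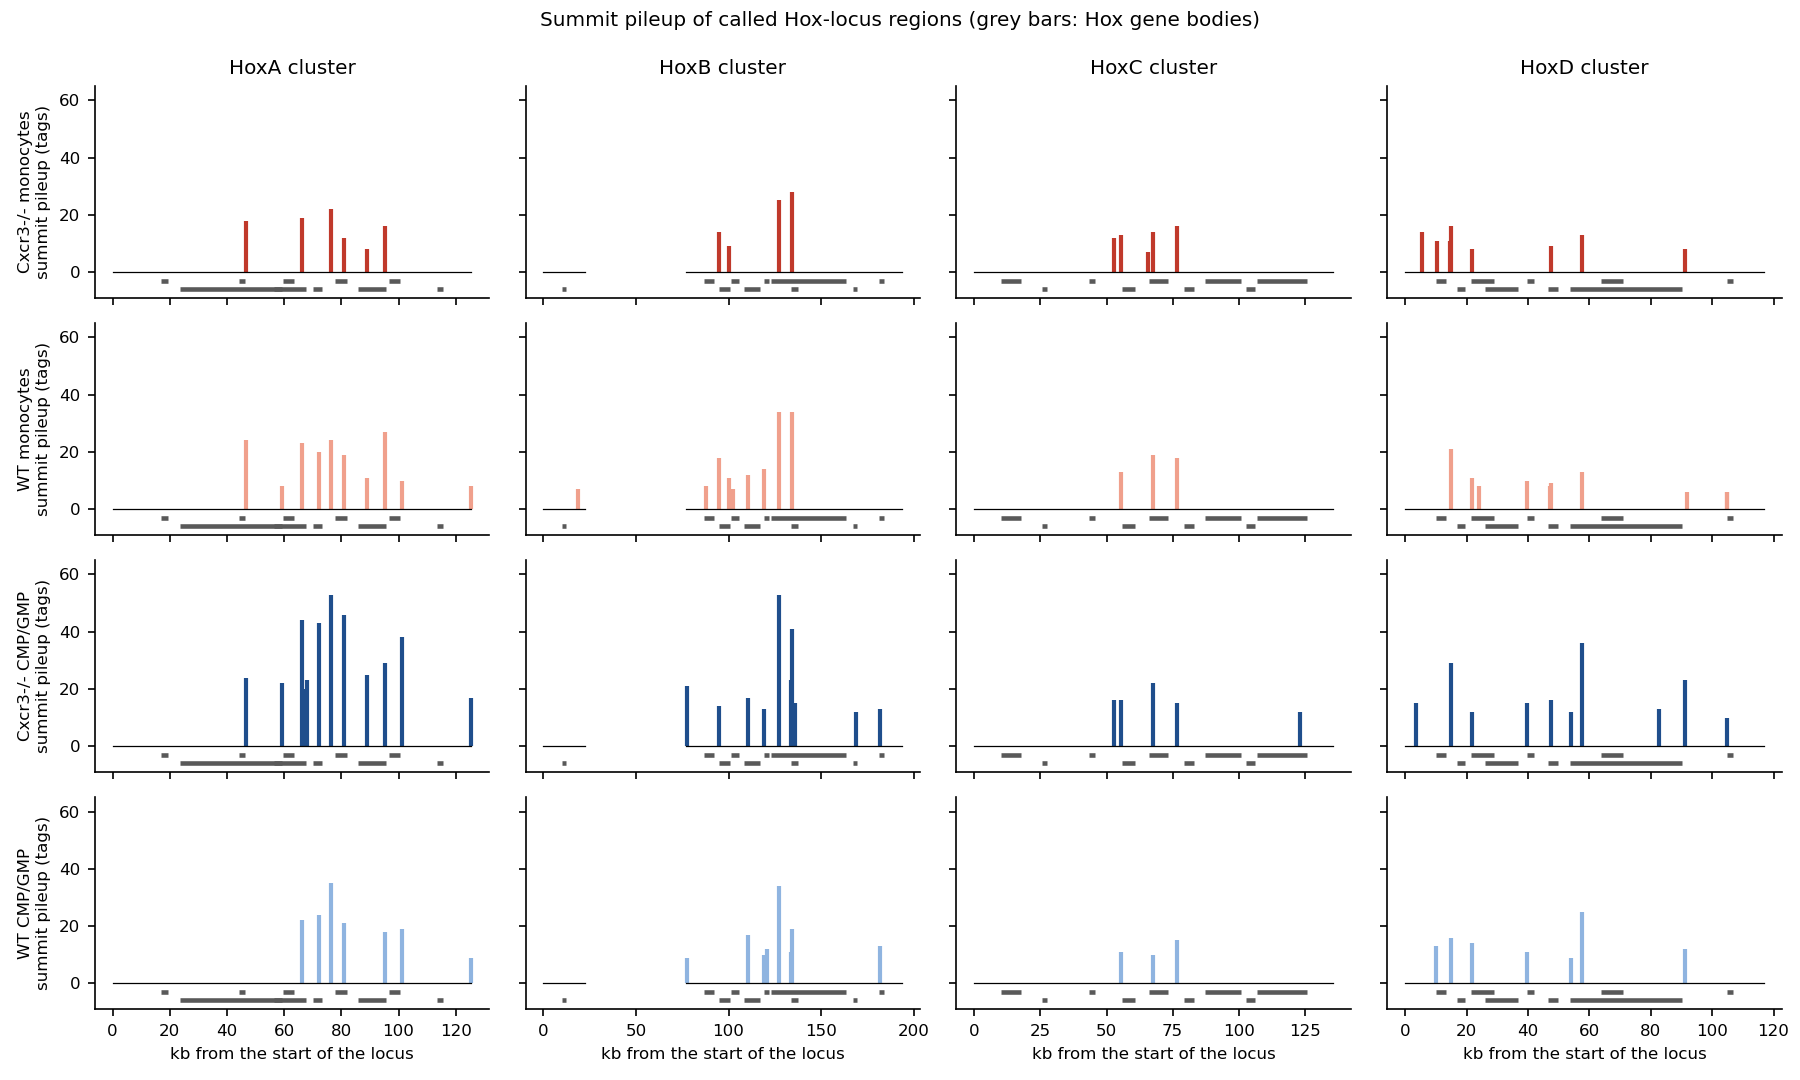
Summit pileup in tags (vertical axis) of called regions along the HoxA, HoxB, HoxC and HoxD loci (columns, horizontal axis in kb from the start of the locus) in the 4 libraries (rows). Each coloured bar is 1 region and grey bars are Hox gene bodies; bars of 53 tags stand between Hoxa7 and Hoxa9 and inside Hoxb3 in Cxcr3-/- CMP/GMP, and HoxC holds no bar above 22 tags.

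The clusters were unequal. HoxA held 9 intervals in Cxcr3-/- monocytes, 15 in WT monocytes, 15 in Cxcr3-/- CMP/GMP and 9 in WT CMP/GMP, and HoxB held 4, 10, 10 and 9. HoxD held 8, 10, 10 and 7, and HoxC, whose locus was the longest unbroken one, held 5, 3, 5 and 3. Pileups above 30 tags occurred in HoxA and HoxB, and in HoxD at a single region in Cxcr3-/- CMP/GMP. The map of pileups shows tall bars of HoxA around Hoxa7 to Hoxa9, those of HoxB around Hoxb3 and Hoxb4, and low bars throughout HoxC.

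Overlapping intervals of the 4 libraries were merged into 55 Hox regions, 16 in HoxA, 15 in HoxB, 6 in HoxC and 18 in HoxD. Of these, 13 (23.6%) were called in all 4 libraries and 21 (38.2%) in 1 library, against 37.0% and 25.6% of 120423 regions genome-wide. Among the regions called in all 4, the Hox median pileup, scaled so that shared regions have the same median in each library, was 18.2, 18.9, 27.9 and 24.0 tags, against 34.1 over all such regions. The weakest Hox interval had 7, 6, 10 and 9 tags, and a region without a call is not shown to be closed.

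At the gene starts the Hox genes stood out by how few had an interval. Within 1 kb of the start, 8 of 39 (20.5%) had an interval in Cxcr3-/- monocytes, 15 (38.5%) in WT monocytes, 18 (46.2%) in Cxcr3-/- CMP/GMP and 11 (28.2%) in WT CMP/GMP. Over all protein-coding genes the shares were 57.4%, 60.6%, 61.2% and 58.3%. In lists reduced to equal length the Hox counts were 5, 7, 9 and 11, so the higher count of Cxcr3-/- over WT CMP/GMP turned to a lower one. The reference gives the start for 22 Hox genes, and either end of the gene body stood in for the start of the other 17. For the 22 alone the counts were 4, 9, 13 and 9, and for the other 17 they were 4, 6, 5 and 2. Where a Hox start had an interval, its median pileup was 14.5, 11, 16 and 13 tags, against 46, 60, 75 and 46 over all genes.

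4 Hox genes had an interval at the start in every library. Hoxb4, a regulator of stem cell expansion, had 28 tags in Cxcr3-/- monocytes, 34 in WT monocytes, 41 in Cxcr3-/- CMP/GMP and 19 in WT CMP/GMP. Hoxa10, known from myeloid progenitors and leukaemia, had 16, 27, 29 and 18 tags in the same libraries. Hoxc10 had 13, 13, 16 and 11 tags and Hoxd11 had 8, 11, 12 and 14, both low in each library.

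Hoxa4, Hoxa7, Hoxa11, Hoxb5 and Hoxd9 were among the genes with an interval at the start in 3 libraries. WT CMP/GMP was the missing library for the anterior gene Hoxa4, which had 18 tags in Cxcr3-/- monocytes, 24 in WT monocytes and 24 in Cxcr3-/- CMP/GMP. Cxcr3-/- monocytes were the missing library for the other 4 named. Hoxa7 had 20 tags in WT monocytes, 43 in Cxcr3-/- CMP/GMP and 24 in WT CMP/GMP, and Hoxa11 had 10, 38 and 19. Hoxb5 and Hoxd9 ranged from 10 to 15 tags in the libraries that called them.

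Hoxa5, Hoxd1 and Hoxd8 had an interval in WT monocytes and Cxcr3-/- CMP/GMP, at 8 and 22, 6 and 10, and 9 and 16 tags. Hoxb1 and Hoxd3 had one in the 2 CMP/GMP libraries, at 13 tags each for Hoxb1 and at 12 in Cxcr3-/- and 9 in WT for Hoxd3. Hoxd13 had 11 tags in Cxcr3-/- monocytes and 13 in WT CMP/GMP. A single library called Hoxa3 (23 tags), Hoxb2 (12) and Hoxc4 (12), all in Cxcr3-/- CMP/GMP, Hoxb7 (11) and Hoxb9 (8) in WT monocytes, and Hoxc9 (7) in Cxcr3-/- monocytes. The remaining 17 genes had none in any library: Hoxa2, Hoxa6, Hoxa9, Hoxa13, Hoxb3, Hoxb6, Hoxb8, Hoxb13, Hoxc5, Hoxc6, Hoxc8, Hoxc11, Hoxc12, Hoxc13, Hoxd4, Hoxd10 and Hoxd12.

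**Figure D2:**
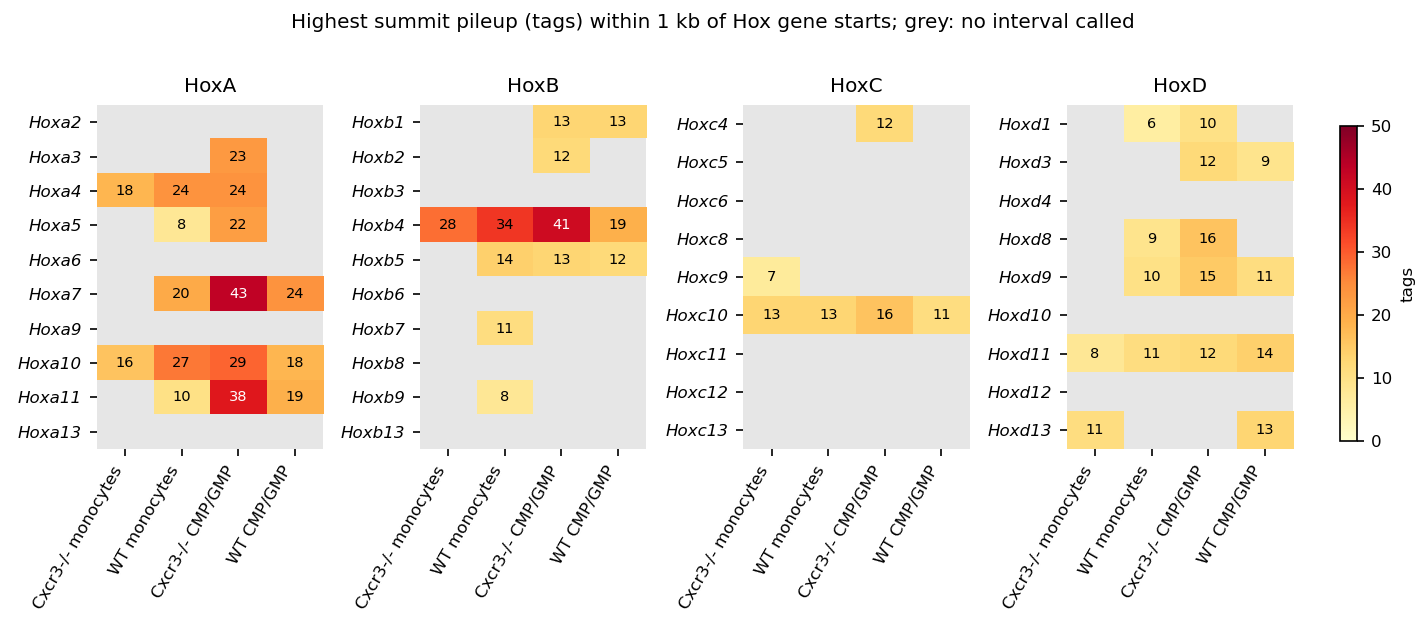
Highest summit pileup (number and colour, in tags) within 1 kb of the start, or of either end where the start is not given, of Hox genes (rows, by cluster and paralogue group) in the 4 libraries (columns). Grey cells have no interval; Hoxa10, Hoxb4, Hoxc10 and Hoxd11 are filled in all 4 columns, and Hoxc5 to Hoxc8 and Hoxc11 to Hoxc13 are empty throughout.

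By paralogue group, anterior genes with an interval at the start numbered 3, 4, 9 and 3 of 12 in Cxcr3-/- monocytes, WT monocytes, Cxcr3-/- CMP/GMP and WT CMP/GMP. Central genes numbered 0, 5, 4 and 2 of 11, and posterior genes 5, 6, 5 and 6 of 16. The posterior count was thus nearly even across libraries, while the anterior count was highest in Cxcr3-/- CMP/GMP. That library also had the most background tags, and the part of depth in the count was not tested. These counts are from the full lists and were not repeated at equal length. There, the count over all Hox genes in Cxcr3-/- CMP/GMP fell from 18 to 9.

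Promoter sequence was taken from RefSeq (GRCm38.p6) for 24 promoters of 22 Hox genes, each spanning 250 bases before to 50 after the start. An interval overlapped 7 of the 24 (29.2%) in at least 1 library and none in all 4, against 56.8% and 46.8% of 21263 promoters genome-wide. CpG dinucleotides, which are common in promoters of broadly active and of Polycomb-regulated genes, had a median count of 14.5 per Hox promoter and of 13 over all promoters. The 7 Hox promoters with an interval had a median of 25 CpGs and the 17 without had 13, against 21 and 3 genome-wide. The lack of CpGs that marks promoters without an interval genome-wide was thus much less pronounced in Hox clusters. Promoters of 3 genes show this range, with the 250 bases before the start printed below, 5′ to 3′ on the gene's strand. Capitals mark each CpG, and the CpG counts given with the coordinates are over these bases. Hoxd9 (chr2:74697513-74697762, plus strand, 13 CpGs) had an interval over its promoter in 3 libraries, the most of the 24. Hoxa5 (chr6:52204588-52204837, minus strand, 28 CpGs) had one in WT monocytes and Cxcr3-/- CMP/GMP. Hoxa13 (chr6:52260881-52261130, minus strand, 35 CpGs), a posterior gene of limb and urogenital development, had the most CpGs of all Hox promoters and no interval in any library.
Hoxd9: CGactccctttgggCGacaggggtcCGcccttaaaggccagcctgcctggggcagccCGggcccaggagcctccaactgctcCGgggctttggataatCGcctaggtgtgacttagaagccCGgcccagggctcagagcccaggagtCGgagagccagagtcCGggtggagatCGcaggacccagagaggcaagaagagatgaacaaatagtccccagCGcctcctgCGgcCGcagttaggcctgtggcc
Hoxa5: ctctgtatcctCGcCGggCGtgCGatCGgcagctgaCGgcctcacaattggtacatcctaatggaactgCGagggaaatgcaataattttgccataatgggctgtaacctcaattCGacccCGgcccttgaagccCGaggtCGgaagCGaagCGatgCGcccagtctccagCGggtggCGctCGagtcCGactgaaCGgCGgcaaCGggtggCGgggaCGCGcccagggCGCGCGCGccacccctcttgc
Hoxa13: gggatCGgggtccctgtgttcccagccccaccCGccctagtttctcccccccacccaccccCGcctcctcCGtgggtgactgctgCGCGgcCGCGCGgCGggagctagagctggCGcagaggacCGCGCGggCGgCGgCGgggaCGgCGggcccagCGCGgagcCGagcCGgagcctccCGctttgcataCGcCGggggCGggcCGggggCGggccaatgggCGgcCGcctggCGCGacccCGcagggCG

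The promoters were also searched on both strands for short motifs, each of which may overlap another. The Pbx-Hox motif TGATNNAT was present in 4 of the 24 (16.7%, against 7.45% of all promoters). The C/EBP motif TTGCNNAA was present in 5 (20.8% against 10.2%) and the box motif TATAAA in 4 (16.7% against 12.6%). TGACAG (Meis) and GAGGAAG (PU.1) were each present in 2 (8.33%, against 18.7% and 13.6%), TGANTCA (AP-1) in 1 (4.17% against 6.99%) and a core CTCF motif in none, against 1.01%. These are matches of letters, not sites shown to be bound.

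In the 10 kb around their summits, some HoxA regions had fewer tags in Cxcr3-/- monocytes than in Cxcr3-/- CMP/GMP beyond counting error. They lay inside Hoxa3, between Hoxa7 and Hoxa9, inside Hoxa9 and inside Hoxa10 (chr6:52234136-52234348). This held whether the libraries were scaled by background or by the regions they share. In WT cells no such difference held under both scalings. A second readout served here, added after the data had been seen. The caller's local background counts the tags in the 10 kb around a summit, which is a wider and better counted measure of open chromatin than the summit itself. By summit pileup, of these regions only the one inside Hoxa9 was lower in Cxcr3-/- monocytes beyond counting error. Its log2 ratio to Cxcr3-/- CMP/GMP was -1.39 (-2.44 to -0.45) with shared scaling and -0.94 (-1.99 to -0.002) over background. With shared scaling the summit ratio was -0.66 (-1.52 to 0.15) inside Hoxa3, -0.72 (-1.50 to 0.03) between Hoxa7 and Hoxa9 and -1.09 (-2.45 to 0.10) inside Hoxa10.

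Between Hoxa7 and Hoxa9 (chr6:52221625-52221942) the 10-kb count was 183 tags in Cxcr3-/- monocytes, 279 in WT monocytes, 607 in Cxcr3-/- CMP/GMP and 372 in WT CMP/GMP. Over background that was 1.88, 2.92, 3.13 and 2.76, the highest of the named HoxA regions in each library. Its summit had 22, 24, 53 and 35 tags. Inside Hoxa9 (chr6:52225984-52226324) the counts were 162, 215, 537 and 344 tags. This region lies 1046 bases from the RefSeq start of Hoxa9, just beyond the 1-kb limit used for gene starts, so Hoxa9 counts among the genes without an interval there. Inside Hoxa3, 1108 bases from its start (chr6:52211544-52211959), the counts were 129, 177, 417 and 233, and at Hoxa10 (chr6:52240379-52240705) they were 114, 154, 264 and 166. Windows of neighbouring summits overlap, so the regions from Hoxa3 to Hoxa10 are not independent measurements.

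**Figure D3:**
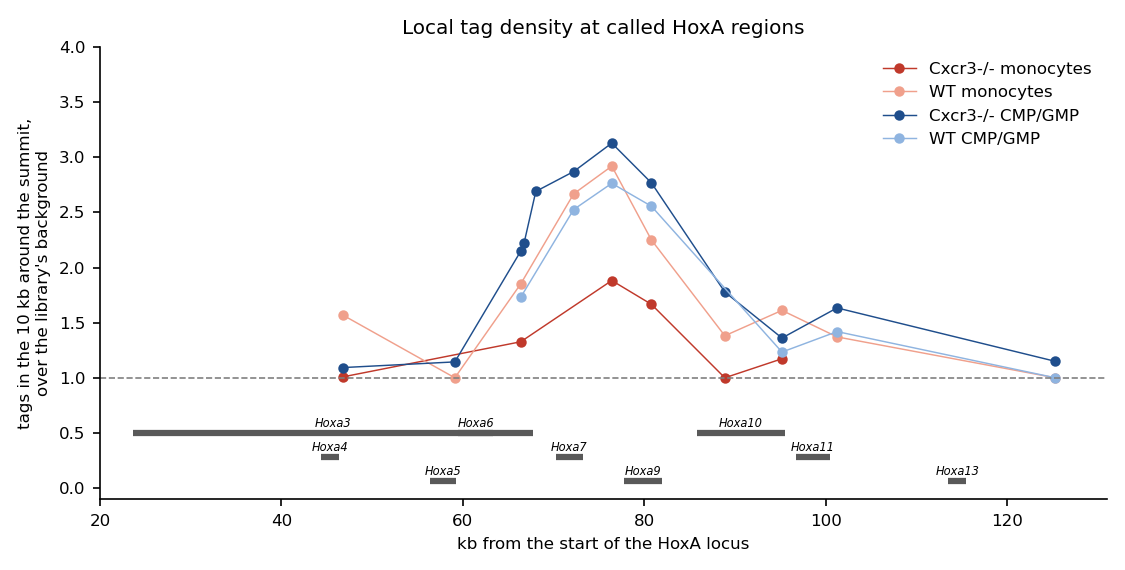
Tags in the 10 kb around each called summit, divided by the library's background (vertical axis), along the HoxA locus from Hoxa4 onward (horizontal axis, kb from the start of the locus), for the 4 libraries. Points are called regions, lines only join them, the dashed line is background and grey bars are genes; the highest point of each library lies between Hoxa7 and Hoxa9, at 1.88, 2.92, 3.13 and 2.76 in the order of the legend.

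Monocytes over CMP/GMP, the log2 ratio of 10-kb tags scaled by shared regions was -0.87 (-1.11 to -0.63) between Hoxa7 and Hoxa9 in Cxcr3-/- cells and -0.53 (-0.76 to -0.30) in WT cells. Inside Hoxa9 it was -0.87 (-1.13 to -0.61) in Cxcr3-/- and -0.79 (-1.05 to -0.54) in WT cells, and inside Hoxa3 -0.83 (-1.13 to -0.54) and -0.51 (-0.80 to -0.22). At Hoxa10 (chr6:52240379-52240705) it was -0.35 (-0.68 to -0.03) in Cxcr3-/- and -0.22 (-0.55 to 0.10) in WT cells. At the other Hoxa10 region (chr6:52234136-52234348) it was -0.97 (-1.31 to -0.64) in Cxcr3-/- cells, and -0.83 (-1.17 to -0.50) over background. The window of that region held 97 tags, at background, in Cxcr3-/- monocytes and 345 in Cxcr3-/- CMP/GMP. WT CMP/GMP did not call it, so it has no WT ratio. All regions had medians of -0.09 in Cxcr3-/- and -0.14 in WT cells under this scaling. Scaled by background instead, the ratio between Hoxa7 and Hoxa9 was -0.73 (-0.98 to -0.49) in Cxcr3-/- and 0.08 (-0.15 to 0.31) in WT cells, against medians of 0.05 and 0.47 over all regions, so in WT cells its direction turned with the scaling. The WT values with shared scaling are not set apart from background: the region nearest Hoxc8, whose windows were at background in both WT libraries, had -0.61 by the same measure, with an upper limit of -0.22.

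Regions called in both monocyte libraries and neither CMP/GMP library numbered 2 of the 55 Hox regions, against 14.4% of all regions. One of them was a weak region 903 bases from the nearer end of Hoxb7, inside Hoxb8, with 9 tags in Cxcr3-/- and 11 in WT monocytes. Regions called in both CMP/GMP libraries and neither monocyte library numbered 4 of 55, against 7.28% of all regions. They lay 268 bases from the Hoxb4 start (23 tags in Cxcr3-/- and 11 in WT CMP/GMP), 9474 bases from Hoxb9 (21 and 9), at Hoxb1 (13 and 13) and at Hoxd3 (12 and 9). The share called in monocytes only was thus lower in Hox loci (3.64%) than over all regions, while the share called in CMP/GMP only (7.27%) was near it. Both shares rest on few Hox regions.

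HoxB was open around Hoxb3 and Hoxb4. The region inside Hoxb3 (chr11:96311271-96311969) had 25 tags at its summit in Cxcr3-/- monocytes, 34 in WT monocytes, 53 in Cxcr3-/- CMP/GMP and 34 in WT CMP/GMP, and 150, 206, 384 and 248 tags in 10 kb. The region at the Hoxb4 start (chr11:96318450-96318966) had 177, 238, 379 and 215 tags in 10 kb, 1.82, 2.49, 1.95 and 1.60 times background. Monocytes over CMP/GMP, the log2 ratio of 10-kb tags over background at Hoxb3 was -0.36 (-0.64 to -0.08) in Cxcr3-/- cells and 0.23 (-0.05 to 0.50) in WT cells. At Hoxb4 it was -0.10 (-0.37 to 0.16) in Cxcr3-/- and 0.64 (0.37 to 0.91) in WT cells. Scaled by shared regions, the ratio at Hoxb3 was -0.49 (-0.77 to -0.22) in Cxcr3-/- and -0.38 (-0.66 to -0.11) in WT cells, so its direction in WT cells turned with the scaling as it did between Hoxa7 and Hoxa9. At Hoxb4 it was -0.24 (-0.50 to 0.03) in Cxcr3-/- and 0.03 (-0.24 to 0.30) in WT cells. Over all regions the medians of the ratio over background were 0.05 in Cxcr3-/- and 0.47 in WT cells. On that scale both HoxB regions lay below the median in Cxcr3-/- cells, and in WT cells Hoxb3 lay below it and Hoxb4 above it.

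4 of the microRNAs encoded between Hox genes fall into 2 seed families, and their mature sequences (RefSeq, GRCm38.p6) are shown with the seed, bases 2 to 8, in capitals because the seed defines the family.
miR-10a-5p: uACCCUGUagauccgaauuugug
miR-10b-5p: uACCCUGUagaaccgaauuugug
miR-196a-5p: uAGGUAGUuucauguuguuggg
miR-196b-5p: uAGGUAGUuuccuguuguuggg
miR-10a lies in HoxB on chromosome 11 and miR-10b in HoxD on chromosome 2, and their sequences carry the same seed. Mir10a was close to the Hoxb4 intervals, with the nearest interval 1263 bases away in Cxcr3-/- monocytes, 1176 in WT monocytes, 428 in Cxcr3-/- CMP/GMP and 608 in WT CMP/GMP. The shorter distances in CMP/GMP come from the region called there and in neither monocyte library. Mir10b, with the same seed, was 9936 to 10072 bases from its nearest interval. Mir196b, between Hoxa9 and Hoxa10, was 3757 to 3788 bases from the Hoxa9 region in every library, and that region had 12 tags at its summit in Cxcr3-/- monocytes, 19 in WT monocytes, 46 in Cxcr3-/- CMP/GMP and 21 in WT CMP/GMP. The genes of miR-196a were 3308 to 13651 bases from an interval.

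By median 10-kb count, HoxC and HoxD were not far above background, and neither was HoxB as a whole cluster. Across the 4 libraries the medians over called regions were 1.07 to 1.33 times background in HoxC. They were 1.16 to 1.22 in HoxD and 1.17 to 1.27 in HoxB. In Cxcr3-/- monocytes, WT monocytes, Cxcr3-/- CMP/GMP and WT CMP/GMP, the HoxA medians were 1.33, 1.59, 1.79 and 1.67. Those of all regions were 1.66, 1.74, 1.48 and 1.40. HoxA was thus below all regions in both monocyte libraries and above them in both CMP/GMP libraries. These medians describe the 10-kb counts and not the summits. In HoxC, regions near Hoxc8, Hoxc9 and Hoxc10 were called in all 4 libraries, with summits of 16, 18, 15 and 15 tags near Hoxc8, 14, 19, 22 and 10 inside Hoxc9 and 13, 13, 16 and 11 near Hoxc10. Their 10-kb counts did not exceed 1.47 times background in any library. In HoxD the tallest region lay inside Hoxd3 (chr2:74715804-74716134), with 13 tags in each monocyte library, 36 in Cxcr3-/- CMP/GMP and 25 in WT CMP/GMP. Its 10-kb window was at background in both monocyte libraries and only 1.08 and 1.03 times background in Cxcr3-/- and WT CMP/GMP. The region between Hoxd13 and Hoxd12 (chr2:74673030-74673237) had 16, 21, 29 and 16 tags, and a region over the Hoxd13 start, called in WT CMP/GMP alone, had 13.

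Cxcr3-/- and WT cells were compared within each cell type. In CMP/GMP, the summit ratio was taken at the 8 Hox regions found in each library whose pileups averaged 30 tags or more. Their median log2 ratio, Cxcr3-/- over WT, was 0.22 (range -0.18 to 0.43), against 0.05 over all regions. None of the 8 was 2-fold apart, and of all regions 0.276% were. The largest values were 0.43 (-0.35 to 1.25) inside Hoxa9, with 46 tags in Cxcr3-/- and 21 in WT, and 0.41 (-0.41 to 1.27) at Hoxb4, with 41 and 19. Both intervals include 0.

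In monocytes 3 Hox regions met the minimum, with a median log2 ratio of -0.04 against 0.00 over all regions, and none was 2-fold apart, as 0.666% of all regions were. Hoxb4 was one of them, with 28 tags in Cxcr3-/- and 34 in WT monocytes, a log2 ratio of 0.06 (-0.71 to 0.83).

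The 10-kb counts covered 24 Hox regions in CMP/GMP and 20 in monocytes. In CMP/GMP the median log2 ratio over background was 0.16, Cxcr3-/- over WT, against 0.11 over all regions, and no Hox region was 2-fold apart, as in 0.0% of all regions. All 8 HoxA regions were above 0, with a median of 0.18, of which 7 were above the median of all regions. In monocytes the median over Hox regions was -0.40 against -0.22 over all regions, with no Hox region 2-fold apart and 0.212% of all regions so. All 9 HoxA regions were below 0, with a median of -0.48, 0.26 below that of all regions, while the 3 HoxC regions had a median of 0.05. In both cell types the median of all regions lay on the same side of 0 as HoxA. The share of all regions on that side was not taken. Windows of neighbouring HoxA regions overlap, so their common direction is not a set of independent results.

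The whole-genome ratio moved with gene density, and HoxA sits in the fourth of 5 density classes, with 13 to 21 genes within 1 Mb. In that class the median log2 ratio of all regions was 0.15 for CMP/GMP and -0.32 for monocytes. The part of this trend in the HoxA values was not tested. With counts scaled by shared regions in place of background, the HoxA medians were 0.03 in CMP/GMP and -0.15 in monocytes, and 5 of 8 and 1 of 9 regions were above 0, so the direction of 3 HoxA regions in CMP/GMP turned with the scaling. In monocytes the region between Hoxa7 and Hoxa9 had -0.63 (-0.91 to -0.36) over background and -0.31 (-0.58 to -0.03) with shared scaling. By 10-kb tags it was thus lower in Cxcr3-/- than in WT monocytes beyond counting error under each scaling. Over all regions the 5th percentile of the ratio over background was -0.73, so the value lies inside the range of most regions. Its summit had 22 tags in Cxcr3-/- and 24 in WT monocytes. The log2 summit ratio was -0.15 (-1.05 to 0.75) over background and 0.22 (-0.69 to 1.11) with shared scaling, so its direction turned with the scaling.

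**Figure D4:**
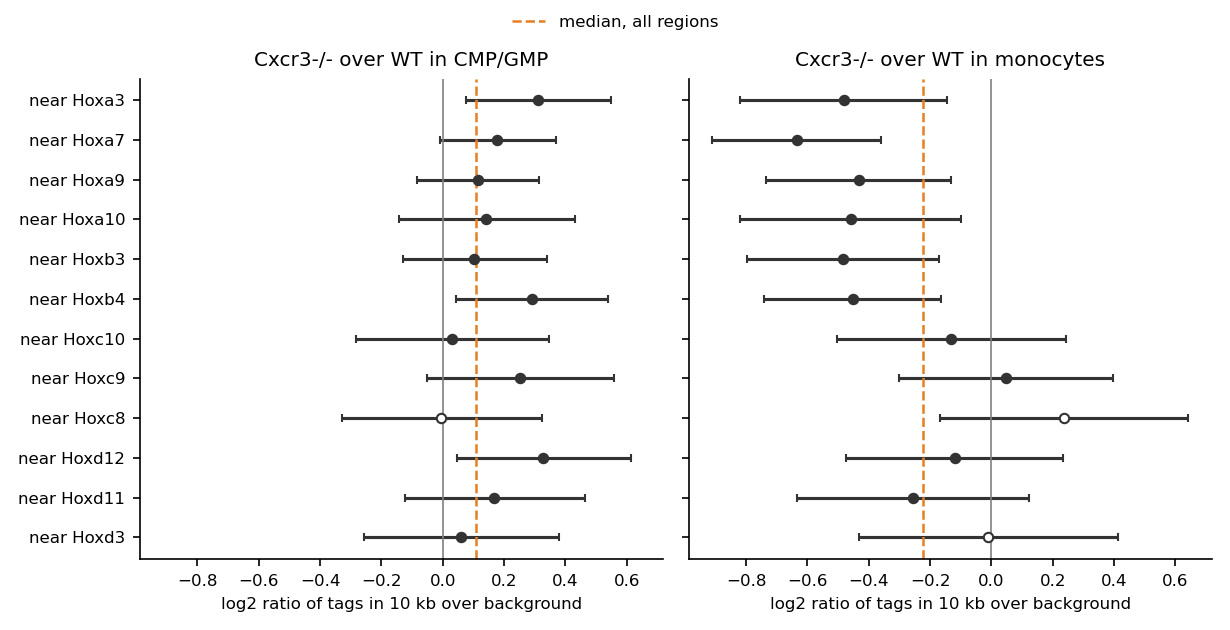
Log2 ratio, Cxcr3-/- over WT, of the tags in 10 kb over background (horizontal axis) at Hox regions called in all libraries (rows, named by the nearest Hox gene), in CMP/GMP (left) and monocytes (right). Bars are exact 95% intervals for counting error, open points have at least 1 library at background and the dashed line is the median of all regions; the HoxA and HoxB points lie above 0 on the left and below 0 on the right.

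Presence gave few differences by genotype. Of the equal-length lists, 6 of 26 Hox intervals of Cxcr3-/- CMP/GMP had no partner in WT CMP/GMP (17.0% over the list) and 7 of 28 of WT CMP/GMP had none in Cxcr3-/- CMP/GMP (13.3%). In monocytes these were 4 of 20 for Cxcr3-/- (13.1%) and 3 of 20 for WT (14.3%). In Cxcr3-/- CMP/GMP the 5 best by q lay near Hoxa4 (24 tags), over the Hoxa5 promoter (22), in Hoxa10 (25), 2745 bases from Hoxc10 (16) and in Hoxd8 (16). The WT CMP/GMP list sets the common length and was not reduced, so its full list gives no further check of these 6. In WT CMP/GMP the 5 best lay at Hoxd11 (14 tags), Hoxb1 (13), Hoxd13 (13), Hoxb5 (12) and Hoxd9 (11), and those at Hoxd11, Hoxb1 and Hoxd9 had a weaker partner in the full Cxcr3-/- list.

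In Cxcr3-/- monocytes the 4 lay 4419 bases from Hoxd13 (14 tags), 2745 bases from Hoxc10 (12), 2092 bases from Hoxd12 (11) and near Hoxb7 (9), and the last had a partner in the full WT list. In WT monocytes the 3 lay in Hoxa7 (20 tags), 205 bases from Hoxb5 (14) and in Hoxb6 (12). The Hoxa7 interval corresponds to 15.8 tags in Cxcr3-/- monocytes after scaling, where the weakest Hox interval had 7. That weakest interval lay in a 10-kb window at 1.30 times background, while the Hoxa7 window was at 2.67 times in WT monocytes. The pileup needed for a call at Hoxa7 in Cxcr3-/- monocytes is thus not known.

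Between cell types, 5 of 20 Hox intervals of Cxcr3-/- monocytes had no partner in Cxcr3-/- CMP/GMP (30.2% over the list) and 10 of 26 the other way (32.7%). In WT cells these were 4 of 20 for monocytes (33.2%) and 11 of 28 for CMP/GMP (31.7%). The best of Cxcr3-/- CMP/GMP against Cxcr3-/- monocytes lay near Hoxa11 (38 tags), in Hoxa7 (43), in Haglr (23), 9474 bases from Hoxb9 (21) and over the Hoxa5 promoter (22). The best of WT CMP/GMP against WT monocytes lay near Hoxa11 (19 tags), at Hoxd11 (14), at Hoxb1 (13), in Haglr (12) and at Hoxd13 (13). Those of WT monocytes against WT CMP/GMP included the one near Hoxa4 (24 tags) and one 2294 bases from Hoxb9 (18). Those of Cxcr3-/- monocytes against Cxcr3-/- CMP/GMP included the ones near Hoxd13 (14 tags), Hoxd12 (11) and Hoxb7 (9).

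By summit pileup, 5 Hox regions gave a monocyte to CMP/GMP ratio in Cxcr3-/- cells, with a median log2 ratio of -0.53 against -0.10 over all regions. Taken from the deposited folds in place of pileups, this median was 0.18, so its direction turned with the readout. In WT cells 2 regions gave one, and Hoxb3 was one of them at -0.49 (-1.22 to 0.24), against a median of 0.03 over all regions. None was 2-fold apart with shared-region scaling, and of all regions 20.8% in Cxcr3-/- and 17.5% in WT cells were. With 5 and 2 Hox regions, the lack of a call does not set them apart from these shares. By 10-kb tags over background the medians over Hox regions were -0.11 in Cxcr3-/- and 0.10 in WT cells, against 0.05 and 0.47 over all regions. Of 20 Hox regions in Cxcr3-/- cells 0 were 2-fold apart by this readout, and of 19 in WT cells 1 was, against 5.28% and 18.4% of all regions.

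Genes that act with or on the clusters were counted at their starts from lists chosen with earlier results of these data known, to be read against the 57.4%, 60.6%, 61.2% and 58.3% of all protein-coding genes with an interval there. Of 9 Hox cofactors, 7, 9, 8 and 6 had an interval at the start in Cxcr3-/- monocytes, WT monocytes, Cxcr3-/- CMP/GMP and WT CMP/GMP. Meis1, a homeodomain partner of Hox proteins, had 68, 74, 83 and 60 tags. MLL and DOT1L complex genes numbered 12, 12, 13 and 13 of 13. Among them Kmt2a, which encodes MLL1, had 41 tags in Cxcr3-/- monocytes, 47 in WT monocytes, 159 in Cxcr3-/- CMP/GMP and 91 in WT CMP/GMP, higher in both CMP/GMP libraries. Polycomb genes numbered 17, 18, 17 and 16 of 19, with 71, 110, 125 and 71 tags at Ezh2, the methyltransferase of the complex. Insulator and cohesin genes numbered 6 of 8 in every library.

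Genes beside the clusters differed by kind. Evx1 and Evx2, homeobox genes at the ends of HoxA and HoxD, had no interval at the start in any library, while the list of neighbours that holds them had 9, 10, 10 and 9 of 12. ParaHox and Cdx genes, relatives of the Hox genes outside the clusters, had 1, 2, 2 and 1 of 6, with Gsx1 at 14, 13, 37 and 25 tags the only one called in all 4 libraries.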

How the data were processed

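The libraries were made from cultured cells by Omni-ATAC-seq. Per the submitters' processing notes, Trim Galore, Bowtie2 and SAMtools were used and the build is mm10. The sources used here name no peak caller and do not say whether duplicate sequencing runs were pooled. The authors deposited 1 interval list per library, with a score (a whole number that follows −log10 q), a fold enrichment at the summit (a ratio), and −log10 p and −log10 q values. The lists hold autosomes and the X chromosome, and an interval listed more than once entered once.

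Whole-number summit pileups were recovered from the deposited fold and −log10 p (a Poisson background, 1 added tag, tolerance 0.001), for all but 2, 3, 59 and 2 intervals of Cxcr3-/- monocytes, WT monocytes, Cxcr3-/- CMP/GMP and WT CMP/GMP, 0 of them in Hox loci. Backgrounds above their lowest value were whole numbers of tags in 10 kb (tolerance 0.05), each worth 111, 100, 125 and 118 bases. These counts exist only around called summits, and a count at the lowest value means at or below background. The recovery and the interval of a ratio were tested on simulated data. Intervals that overlapped formed a region, which took its tallest pileup from each library. The pileups were scaled by 0.879, 1.11, 1.29 and 0.791, from the median over regions called in all 4 libraries, and 10-kb tags by the background. To compare presence, the best 69521 intervals by q were kept from every list, and 1 shared base made a partner.

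Ratios have exact (Clopper-Pearson) 95% counting intervals. Differences between ratios have approximate ones, from the sum of the reciprocal counts. "2-fold apart" was the threshold for a call. PCR duplicates are not independent molecules, so intervals cover counting error only. Genes and regions were named by rule: Hox genes with an interval at the start, regions called in 1 cell type only, the 3 tallest regions per cluster and up to 5 library-only intervals per direction. The members, lists and rules were chosen with earlier results of these data known. The 10-kb counts came after a first look at the values. Some results are not reported here. Gene models and promoters came from RefSeq (GRCm38.p6), and 12 of 13 neighbour genes matched. Python 3.11.15, NumPy 2.4.6, SciPy 1.17.1 and pandas 2.3.3 were used.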

Additional observations from a re-analysis of the deposited data

Results flagged for a closer look

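The region between Hoxa7 and Hoxa9 differed between the cell types in its genotype ratio of 10-kb tags. The log2 ratio of Cxcr3-/- over WT was 0.18 in CMP/GMP and -0.63 in monocytes, a difference of 0.81 (approximate 95% counting interval 0.48 to 1.14). Scaled by shared regions the difference was 0.34 (0.01 to 0.66). It was the only 1 of 13 Hox regions called in all libraries whose interval lay above 0 under both scalings, by either readout. By summit pileup the difference was 0.22 (-0.82 to 1.26) scaled by background and -0.32 (-1.36 to 0.72) scaled by shared regions. Its direction by that readout thus turned with the scaling, and both intervals include 0. Over 44532 regions called in all libraries the same difference had a median of 0.40, with 5th and 95th percentiles of -0.18 and 1.05, so the Hox value lies inside that range. The median was 0.52 among regions of the gene density class that holds HoxA. These intervals cover counting error only and no replicate bears on the difference, and the part of gene density in it was not tested.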

How the results depend on the processing

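Values follow the order Cxcr3-/- monocytes, WT monocytes, Cxcr3-/- CMP/GMP and WT CMP/GMP unless named. No paired analysis was possible because the labels give no replicate numbers and each group has 1 library. The count of Hox intervals was 20, 20, 26 and 28 in lists of equal length, 18, 23, 26 and 18 with −log10 q of at least 5, 14, 25, 26 and 19 without a flank, and 36, 53, 49 and 33 with 50 kb. The count of Hox genes with an interval at the start was 5, 7, 9 and 11 in equal-length lists, 5, 9, 9 and 6 with −log10 q of at least 5, and 5, 10, 11 and 6 within 250 bases. With either end used for every gene, added after the data were seen, it was 9, 17, 19 and 11. Intervals without a partner in the full lists numbered 15 for Cxcr3-/- and 2 for WT CMP/GMP by genotype, 7 for Cxcr3-/- and 18 for WT monocytes by genotype, 19 for Cxcr3-/- CMP/GMP against Cxcr3-/- monocytes, 18 for WT monocytes against WT CMP/GMP and 7 the other way. With 50% reciprocal overlap they numbered 11 for WT CMP/GMP and 6 for WT monocytes by genotype and 8 for Cxcr3-/- monocytes against Cxcr3-/- CMP/GMP. Among candidates with −log10 q of at least 5, WT CMP/GMP had 2 by genotype and 4 against WT monocytes. The median log2 pileup ratio of monocytes over CMP/GMP in Cxcr3-/- cells, -0.53, was -0.087 by background tags, 0.18 by deposited folds and -0.19 with a mean pileup of at least 10. In WT cells, 0.22 from 2 regions, it was 1.21 by background tags and -0.46 with a mean pileup of at least 10. The cause of these moves was not tested. Over the 4 comparisons 15 other values of this median stayed within its counting error. No Hox region had a mean pileup of at least 60, so that alternative gave no value. By 10-kb tags scaled by shared regions the medians over Hox regions were 0.01 and -0.07 by genotype in CMP/GMP and monocytes, and -0.25 and -0.51 by cell type in Cxcr3-/- and WT cells. Depth limits single regions, with median Hox pileups of 12.5 to 20.5 tags, and with 1 library per group no value has a replicate check.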
